A study of Mus musculus with 8 samples.

Results

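The fatty acid desaturases and elongases described here are 10 genes of white adipocytes. They comprise the stearoyl-CoA desaturases Scd1, Scd2, Scd3 and Scd4, the fatty acid desaturases Fads1, Fads2 and Fads3, and the elongases Elovl1, Elovl5 and Elovl6. They were found by their symbols in the table of normalized counts, which lists 30387 genes, and all 10 had 1 row each and passed the filter on low values, which asked for an average of 5 or more normalized counts, as did 18800 genes in all. White adipocytes were isolated from epididymal fat pads, and their total RNA was sequenced after depletion of ribosomal RNA. The 4 groups were 2 genotypes, Ad-Yap/Taz-KO (KO) and wild-type (WT), each on standard diet (SD, called normal chow in the sample labels) or on high-fat diet (HFD), with 2 libraries per group. Ad-Yap/Taz-KO mice carried floxed alleles of Yap and Taz on both chromosomes and Adipoq-Cre, in which the adiponectin promoter drives Cre recombinase, so both genes are deleted constitutively in adipocytes, without an inducing agent, and other cells of fat keep them. The controls were wild-type littermates. The diets lasted 4 weeks from an age of 5 weeks by the description of the data, whereas the study's methods give a later start for its animals in general and male mice. The study describes the libraries of a group as coming from separate mice, whereas the sample labels name no animals, and the p-values measure the spread between these libraries.

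Acyl chains made by fatty acid synthase are saturated. Elongases of the ELOVL family carry out the condensation step that lengthens an acyl chain at the endoplasmic reticulum, and Elovl6 takes palmitate to stearate. The stearoyl-CoA desaturases place a first double bond in these chains and give palmitoleate and oleate, the main monounsaturated fatty acids of adipocyte triglyceride, whereas Fads1 and Fads2 add double bonds to polyunsaturated chains on the way to arachidonic acid. All of these desaturases take electrons from cytochrome b5, and the sterol response element binding protein SREBP-1c, made from Srebf1, and the liver X receptors are known activators of Scd1, Fasn and Elovl6.

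The deposited values are gene counts that the authors divided by a size factor for each library and rounded to whole numbers. They summed to 14.89 M to 20.99 M per library, which corresponds to 14.0 M to 22.3 M reads on genes. The targeted gene Wwtr1, which encodes TAZ, was at 5594 and 4743 in WT mice on SD, 2441 and 1957 in KO mice on SD, 7121 and 6807 in WT mice on HFD and 2060 and 2707 in KO mice on HFD. Yap1 was at 2776 and 2717, 1669 and 1699, 2468 and 2333, and 1549 and 2068 in the same order. Both genes were lower in every KO library than in every WT library, with a residual level in each. Yap1 did not pass the test on HFD (log2 fold change -0.42, adjusted p = 0.059, limma). The WT libraries on HFD stood apart from the other groups, because their genes with 1000 to 5000 reads varied 6.19 times as much as Poisson counting allows, against 35.26 to 92.34 times in the other groups. They differed hardly more than genes of 5 to 20 reads did (4.88 times). Although the study describes them as separate mice, they were therefore counted as 1 sample: their values are printed without a standard deviation, the fit kept both as designed, and calls of the 10 genes that were lost when they entered the fit as 1 sample are named beside the result.

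KO adipocytes on HFD had less RNA of 5 of the 10 genes: Scd1, Scd2, Fads1, Fads3 and Elovl6. In bulk RNA fewer adipocytes and less RNA of a gene in each adipocyte cannot be told apart. The levels of the 5 were 3.16-fold to 8.37-fold lower than in WT mice on HFD. A gene was called where limma's p, adjusted over all tested genes by Benjamini-Hochberg, did not exceed 0.05 and its log2 fold change reached 0.59 up or down. By this rule 15.1% of all tested genes were lower and 32.2% changed in either direction, so 5 of 10 genes lower stands beside a large background. None of the 10 was higher. The median log2 fold change was -1.31 over the 10 genes and 0.09 over all tested genes. On SD 2 of the 10, Fads3 and Elovl6, were lower in KO mice, where 1.50% of all tested genes were lower, and with the WT libraries on HFD as 1 sample this was 1 of 10, against 0.840% of all.

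HFD raised the same 5 genes in WT mice, between 1.91-fold and 12.29-fold, where 8.74% of all tested genes were higher, and 3 of the 5 were called with the WT libraries on HFD as 1 sample, where 1.12% of all were higher. With this diet change all 10 macrophage markers, 4 of 9 fibroblast markers and 3 of 7 endothelial markers were lower, where 9.22% of all tested genes were lower, and 2 of 8 adipocyte markers were higher. With the WT libraries on HFD as 1 sample these calls were left for 1 macrophage marker, Cd68, for 1 fibroblast marker, Pdgfra, and for no endothelial or adipocyte marker. Their part in the changes of the 10 genes was not tested. In KO mice HFD changed 0 of the 10 by the limma rule, where 1.07% of all tested genes changed in either direction. At an unadjusted p under 0.05, 5 were higher on HFD in these mice (Scd2, Scd3, Scd4, Fads2 and Elovl1), where 7.79% of all tested genes were higher by that limit, and Fads1 was lower, as were 7.66% of all. The interaction, the change of KO against WT on HFD minus that on SD, was called negative for Scd2, Fads1, Fads3 and Elovl6, 4 of 10, where 8.73% of all tested genes were called negative. With the WT libraries on HFD as 1 sample 1 of these interactions was called, where 0.787% of all were negative. These comparisons share groups, since the WT libraries on HFD enter the first, the diet comparison in WT mice and the interaction. With 2 libraries against 2, an exact permutation test of a single gene cannot give a p below 0.333, so each test of a gene rests on a spread that limma shares among genes. The plot of the 10 genes by library shows the values behind these counts.

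**Figure D1:**
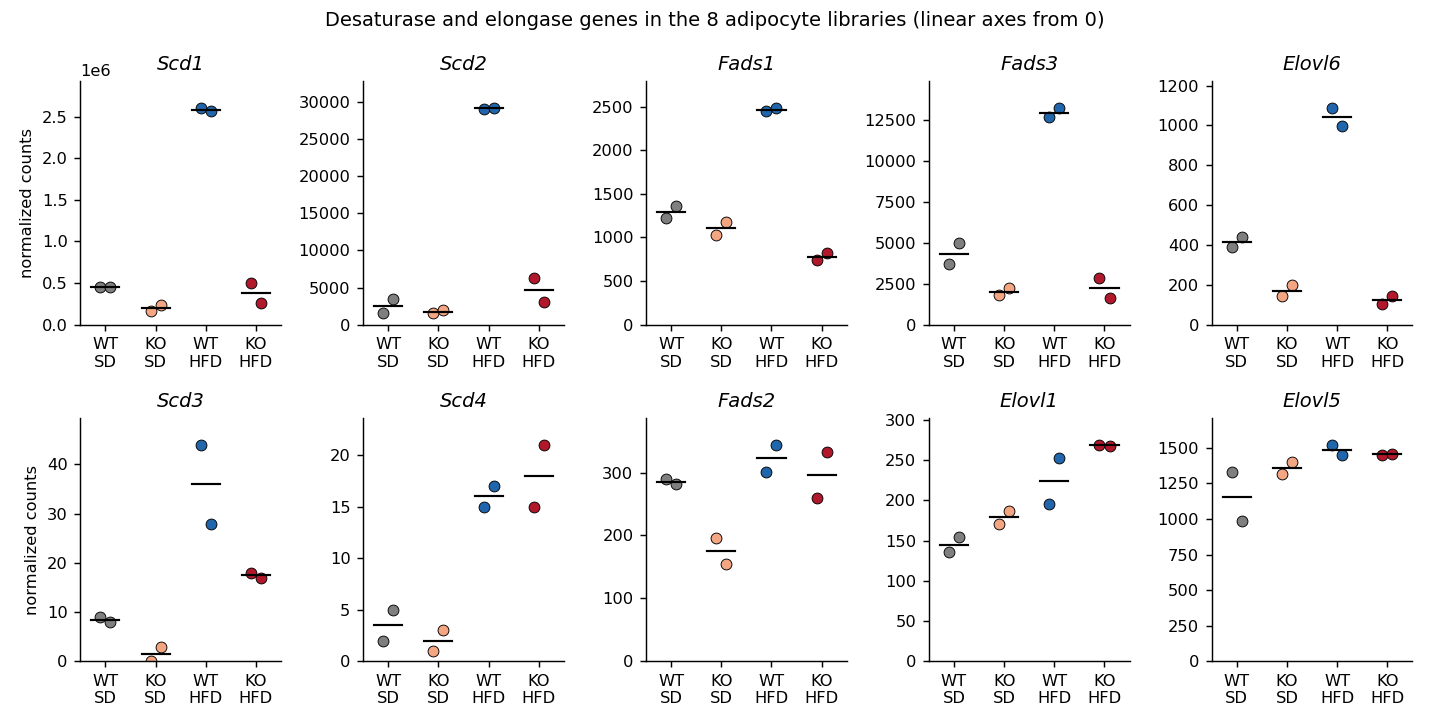
Normalized counts of the 10 genes in each library, on linear axes that start at 0. Points are libraries, 2 per group, bars are the group means, KO stands for Ad-Yap/Taz-KO, and in the upper row the WT libraries on HFD lie above all 6 others for each of the 5 genes, with Scd1 at 2602971 and 2567533.

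The 4 stearoyl-CoA desaturase genes lie together on chromosome 19 and are near copies of each other. The 90 bases of coding sequence below were cut from the middle of the longest coding run that Scd1 and Scd3 share without a difference. They are shown because a read that falls inside them matches several of the genes with few or no mismatches. The sequence of Scd1 is given first, and capitals in the others mark bases that differ from Scd1 (GRCm38, printed in the direction of transcription).
Scd1 (chr19:44401729-44401818, - strand): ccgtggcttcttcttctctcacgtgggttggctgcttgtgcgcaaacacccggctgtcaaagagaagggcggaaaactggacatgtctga
Scd2 (chr19:44299689-44299778, + strand): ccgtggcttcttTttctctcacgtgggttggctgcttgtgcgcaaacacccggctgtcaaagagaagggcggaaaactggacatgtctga
Scd3 (chr19:44235851-44235940, + strand): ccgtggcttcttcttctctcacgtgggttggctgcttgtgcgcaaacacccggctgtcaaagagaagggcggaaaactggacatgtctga
Scd4 (chr19:44338990-44339079, + strand): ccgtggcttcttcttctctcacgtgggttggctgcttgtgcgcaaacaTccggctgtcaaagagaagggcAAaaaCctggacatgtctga
By this choice Scd3 does not differ from Scd1 in this stretch, whereas Scd2 differs at 1 base and Scd4 at 4 bases. Scd1 and Scd3 share a coding run of 185 bases without a difference. Over the whole aligned coding sequence the identity to Scd1 was 90.3% for Scd2, 91.5% for Scd3 and 84.6% for Scd4. The reads were 75 bases long, and 3.15% of the 75-base windows of the Scd1 transcripts also occurred in another gene, against 1.78% for Scd2, 3.20% for Scd3 and 1.62% for Scd4. For windows of 40 bases, as a trimmed read may be, the shares were 6.28% for Scd1, 5.33% for Scd2, 10.17% for Scd3 and 7.94% for Scd4. The authors left out reads that aligned to several places, and reads that were trimmed shorter or carried a mismatch can still be placed on the wrong copy, so the values of Scd3 and Scd4 beside a gene as abundant as Scd1 are uncertain. For Scd2, 79 of its 97 shared 75-base windows occurred in Scd1, and the part of misplaced Scd1 reads in its values was not tested.

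Scd1 (ENSMUSG00000037071, chr19:44394451-44407709, - strand), the main stearoyl-CoA desaturase of adipose tissue, was among the most abundant transcripts of every library. Its normalized count was 457683 and 455110 in WT mice on SD (456397 ± 1819, standard deviation of n = 2), and 163234 and 233338 in KO mice on SD (198286 ± 49571, standard deviation of n = 2). On HFD it was 2602971 and 2567533 in WT mice, and 501294 and 258238 in KO mice (379766 ± 171867, standard deviation of n = 2). The WT libraries on HFD were far above all others, and the groups did not overlap in any of the 4 comparisons. Scd1 was 7.19-fold lower in KO than in WT mice on HFD (log2 fold change -2.85 ± 0.41 SE, adjusted p = 0.00024, limma). HFD raised it 5.66-fold in WT mice (2.50 ± 0.41 SE, adjusted p = 0.0023). On SD the difference between genotypes was -1.23 ± 0.41 (adjusted p = 0.13), which was called after quantile normalization (-1.59, adjusted p = 0.014), and the diet difference in KO mice was 0.88 ± 0.41 (adjusted p = 0.33). The interaction of -1.62 ± 0.58 did not pass (adjusted p = 0.073) and was called without the first KO library on HFD (-2.10, adjusted p = 0.0065), so the genotype difference of Scd1 was not shown to depend on diet.

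Scd1 took 2.95% and 2.87% of all normalized counts in WT mice on SD, and 1.06% and 1.38% in KO mice on SD. On HFD its share was 12.4% and 12.3% in WT mice, and 2.92% and 1.73% in KO mice. Scd1 was the top gene of both WT libraries on HFD, whereas the mitochondrial ribosomal RNA mt-Rnr2 was the top gene of the other 6. Among protein-coding genes of the nucleus Scd1 ranked 1 in 6 libraries and 2 in both KO libraries on SD. Whole reads could not be recovered from the rounded values, so no counting interval is given for these shares. When all libraries were brought to the same total, the median of all tested genes in the comparison on HFD moved from 0.09 to 0.47, and all 5 genes were still called lower.

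**Figure D2:**
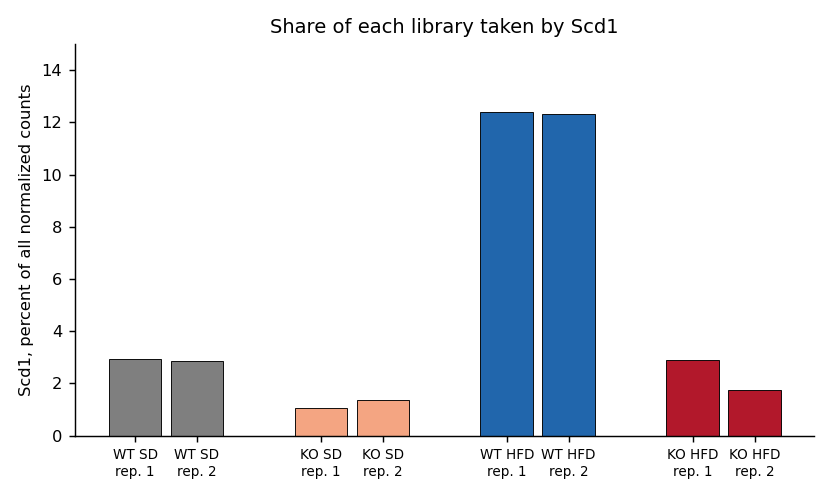
Share of all normalized counts taken by Scd1 in each of the 8 libraries, in percent, on an axis that starts at 0. KO stands for Ad-Yap/Taz-KO, and the bars of the 2 WT libraries on HFD reach 12.4% and 12.3%, against 1.06% to 2.95% in the 6 others.

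Scd2 (ENSMUSG00000025203, chr19:44293676-44306864, + strand), the form that prevails in brain and in precursors of adipocytes, moved with Scd1 at a much lower level. It was at 1621 and 3457 in WT mice on SD, 1622 and 1931 in KO mice on SD, 29068 and 29160 in WT mice on HFD, and 6317 and 3083 in KO mice on HFD. The libraries of the genotypes overlapped on SD, and the WT libraries on HFD were above all others. Scd2 was 6.60-fold lower in KO mice on HFD (log2 fold change -2.72 ± 0.33 SE, adjusted p = 6.1e-05, limma) and 12.29-fold higher on HFD in WT mice (3.62 ± 0.33 SE, adjusted p = 7.2e-05), the largest diet change of the 10 genes in WT mice. On SD the genotype difference was -0.42 ± 0.33 (adjusted p = 0.58), and it changed sign to 0.13 without the second WT library on SD. In KO mice Scd2 was 2.49-fold higher on HFD without passing the test (1.32 ± 0.33, adjusted p = 0.081), and it was called after quantile normalization (1.41, adjusted p = 0.049) and without the second KO library on HFD (1.84, adjusted p = 0.045). The interaction was -2.30 ± 0.47 (adjusted p = 0.0094), and was lost with the WT libraries on HFD as 1 sample (adjusted p = 0.058), without the first WT library on SD (-1.76, 0.059), without the second WT library on HFD (0.055) and without a filter on low values (0.069). Per kilobase of exon, Scd1 was 315-fold and 147-fold above Scd2 in WT mice on SD, and between 88.6-fold and 134.9-fold above it in the 6 other libraries. Scd1 made up 98.9% to 99.7% of the level per kilobase summed over the 4 genes in all libraries.

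Scd3 (ENSMUSG00000025202, chr19:44203288-44244016, + strand) is known from skin and the Harderian gland and Scd4 (ENSMUSG00000050195, chr19:44333092-44346743, + strand) from heart. Here both were close to the limit of detection. Scd3 was listed at 9 and 8 in WT mice on SD, 0 and 3 in KO mice on SD, 44 and 28 in WT mice on HFD, and 18 and 17 in KO mice on HFD. Scd4 was listed at 2 and 5, 1 and 3, 15 and 17, and 15 and 21 in the same order. Both were higher in every library on HFD than in every library on SD, and neither passed the test in any comparison. The fitted changes of Scd3 and Scd4 against groups at 5 or fewer normalized counts depend on the pseudocount and are not given as folds. On HFD the genotype difference was -0.97 for Scd3 (95% interval -2.91 to 0.98) and 0.14 for Scd4 (-1.90 to 2.19). For each 1 M counts of Scd1 the libraries held 0 to 19.7 counts of Scd3 in the 6 libraries other than KO on HFD, and 35.9 and 65.8 in KO mice on HFD. Scd4 per 1 M of Scd1 was 4.40 to 12.9 in these 6 libraries and 29.9 and 81.3 in KO mice on HFD. Scd3 and Scd4 thus did not keep a fixed ratio to Scd1, as the plot of the paralogs against Scd1 shows, and the part of misplaced Scd1 reads in their values was not tested.

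**Figure D3:**
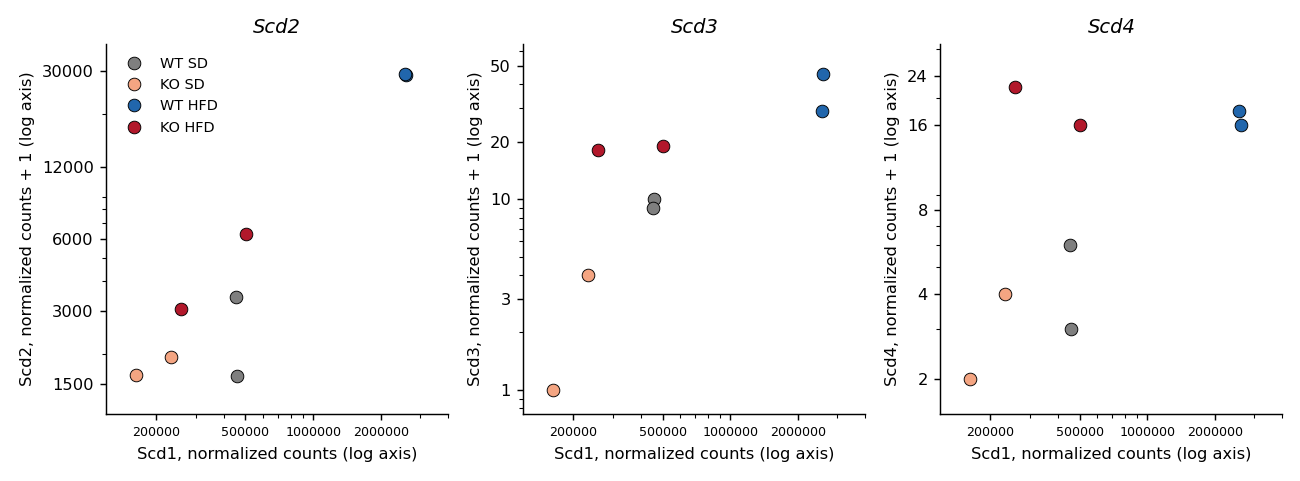
Scd2, Scd3 and Scd4 against Scd1 in the 8 libraries, in normalized counts, with 1 added on the vertical axes and log scales on both axes. KO stands for Ad-Yap/Taz-KO, and the KO libraries on HFD lie near the WT libraries on HFD for Scd4 (15 and 21 against 15 and 17) although their Scd1 is far lower.

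The 3 FADS genes lie in a cluster on chromosome 19 and are less alike, with coding identities of 61.7% to 69.5%, and they shared no 75-base window with another gene. They differed in what they did. Fads1 (ENSMUSG00000010663, chr19:10182888-10196870, + strand), which makes arachidonic acid from its precursor, was at 1218 and 1364 in WT mice on SD, 1034 and 1174 in KO mice on SD, 2446 and 2483 in WT mice on HFD, and 743 and 817 in KO mice on HFD. The KO libraries on HFD were the lowest of all 8. Fads1 was 3.16-fold lower in KO mice on HFD (log2 fold change -1.66 ± 0.15 SE, adjusted p = 6.8e-06, limma) and 1.91-fold higher on HFD in WT mice (0.93 ± 0.15 SE, adjusted p = 0.0023). This diet call was lost with the WT libraries on HFD as 1 sample (0.0503) and fell below the fold limit at the same total (0.52). On SD the genotype difference was -0.23 ± 0.15 (adjusted p = 0.51). The interaction was -1.43 ± 0.22 (adjusted p = 0.0033), and Fads1 was the gene whose interaction was still called with the WT libraries on HFD as 1 sample. In KO mice Fads1 was lower on HFD than on SD without passing the test (-0.50 ± 0.15, adjusted p = 0.14).

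Fads2 (ENSMUSG00000024665, chr19:10064164-10101503, - strand), which catalyses the first step of the polyunsaturated pathway, was at 289 and 281 in WT mice on SD, 196 and 154 in KO mice on SD, 301 and 344 in WT mice on HFD, and 260 and 332 in KO mice on HFD. The genotypes overlapped on HFD, and no comparison of Fads2 passed the test. The genotype difference was -0.13 on HFD (95% interval -0.64 to 0.38) and -0.71 on SD (-1.22 to -0.20, adjusted p = 0.13). The count of Fads1 was 4.21 to 7.62 times that of Fads2 on SD, 8.13 and 7.22 times in WT mice on HFD, and 2.86 and 2.46 times in KO mice on HFD, the lowest of all libraries. The ratios of KO mice on SD (5.28 and 7.62) and of WT mice on HFD overlapped, and the ratio was not tested.

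Fads3 (ENSMUSG00000024664, chr19:10041548-10059671, + strand), which places a double bond in the sphingoid base of ceramides, was the most abundant of the 3. It was at 3685 and 4985 in WT mice on SD, 1813 and 2209 in KO mice on SD, 12652 and 13205 in WT mice on HFD, and 2865 and 1603 in KO mice on HFD. Every KO library was below every WT library, on either diet. Fads3 was 6.03-fold lower in KO mice on HFD (log2 fold change -2.59 ± 0.24 SE, adjusted p = 6.1e-06, limma), 2.14-fold lower on SD (-1.10 ± 0.24 SE, adjusted p = 0.018) and 3.02-fold higher on HFD in WT mice (1.59 ± 0.24 SE, adjusted p = 0.0013). In KO mice the diets differed by 0.10 ± 0.24. The interaction was -1.49 ± 0.34 (adjusted p = 0.013). The call on SD was lost without the second WT library on SD (adjusted p = 0.25), without the first KO library on SD (0.10), without a filter on low values (0.13) and with the WT libraries on HFD as 1 sample (0.053). The interaction was lost in the last 2 of these (adjusted p = 0.075 and 0.072) and without either WT library on HFD (0.058 and 0.072), the first WT library on SD (0.083) or the second KO library on SD (0.051).

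Elovl6 (ENSMUSG00000041220, chr3:129532355-129638495, + strand), the elongase of saturated chains that feeds the stearoyl-CoA desaturases, had a genotype difference on HFD of -3.07. This difference was larger in size than those of Scd1 (-2.85), Scd2 (-2.72) and Fads3 (-2.59). The order depended on which KO library was left out. Without the first KO library on HFD the difference of Elovl6 was -2.85, smaller in size than those of Scd1 (-3.32), Scd2 (-3.24) and Fads3 (-3.01). Without the second KO library on HFD Elovl6 stood at -3.29, against -2.37 for Scd1, -2.20 for Scd2 and -2.17 for Fads3. It was at 390 and 438 in WT mice on SD, 145 and 198 in KO mice on SD, 1087 and 999 in WT mice on HFD, and 106 and 144 in KO mice on HFD. Every KO library was below every WT library, and both of those on HFD were below both of those on SD. Elovl6 was 8.37-fold lower in KO mice on HFD (log2 fold change -3.07 ± 0.24 SE, adjusted p = 1.5e-06, limma) and 2.43-fold lower on SD (-1.28 ± 0.24 SE, adjusted p = 0.0067). HFD raised it 2.52-fold in WT mice (1.33 ± 0.24 SE, adjusted p = 0.0036), and the diets differed by -0.45 ± 0.24 in KO mice (adjusted p = 0.38). The interaction was -1.78 ± 0.34 (adjusted p = 0.007). Without the second WT library on SD the call on SD was lost (adjusted p = 0.10), and with the WT libraries on HFD as 1 sample the diet call in WT mice (0.058) and the interaction (0.051) were lost. The diet call was also lost without the first WT library on SD (0.058) or on HFD (0.0505), and the interaction without the first WT library on SD (0.052). Some 2.05% of the 75-base windows of Elovl6 also occur in another gene, mostly in Gm11295, and 5.08% of its 40-base windows.

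Elovl1 (ENSMUSG00000006390, chr4:118428093-118432953, + strand), which makes very long saturated chains for sphingolipids, and Elovl5 (ENSMUSG00000032349, chr9:77917364-77984519, + strand), which elongates polyunsaturated chains, did not pass the test in any comparison. Elovl1 was at 136 and 154 in WT mice on SD, 171 and 187 in KO mice on SD, 195 and 253 in WT mice on HFD, and 269 and 268 in KO mice on HFD. Its libraries did not overlap between the genotypes on either diet, with the KO libraries above, and the differences were 0.27 on HFD (95% interval -0.26 to 0.81) and 0.30 on SD (-0.23 to 0.84). Elovl5 was at 1327 and 984, 1318 and 1398, 1521 and 1452, and 1450 and 1459 in the same order. Its genotype difference was -0.03 on HFD (95% interval -0.40 to 0.33) and 0.25 on SD (-0.12 to 0.61), the narrowest intervals after those of Fads1. The coding identities among the 3 elongases were 51.7% to 55.4%. The plot of changes places all 10 genes side by side.

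**Figure D4:**
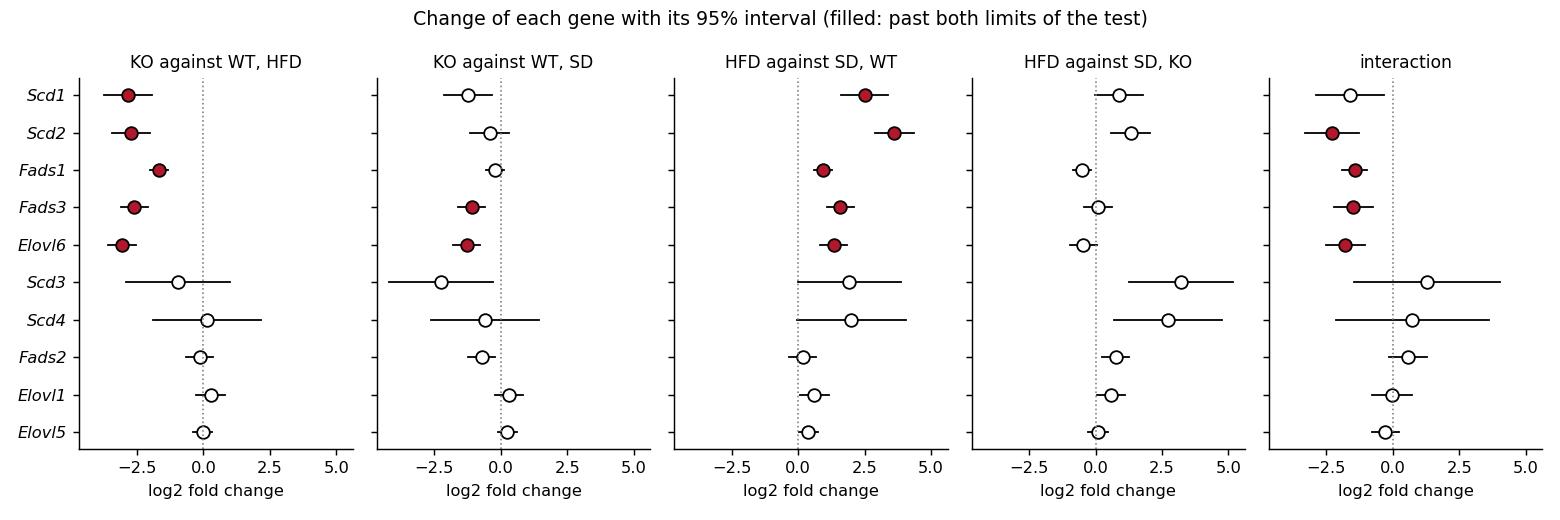
Log2 fold change of each gene (point) with its 95% interval (line) in 4 comparisons and the interaction of genotype and diet, from limma. Filled points passed both the adjusted p of 0.05 and the fold limit, KO stands for Ad-Yap/Taz-KO, and on HFD 5 genes lie between -3.07 and -1.66 while Fads2, Elovl1, Elovl5 and Scd4 lie between -0.13 and 0.27.

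Per kilobase of exon, averaged over the 8 libraries, the levels ran in the order Scd1 (184981 normalized counts per kilobase), Scd2 (1745), Fads3 (1418), Elovl5 (387), Fads1 (293), Fads2 (81.8), Elovl1 (74.9), Elovl6 (68.2), Scd3 (4.47) and Scd4 (2.62). Neighbours in this order changed places between groups. Scd2 was above Fads3 in WT mice on HFD and in KO mice on HFD, and below it in all libraries on SD, and Elovl6 was the lowest of the 6 FADS and ELOVL genes in every KO library. In WT mice on HFD Elovl6 (169 and 155 normalized counts per kilobase) was above Fads2 (91.5 and 104.6) and Elovl1 (71.4 and 92.7), and Fads1 (509 and 516) was above Elovl5 (432 and 412.5). The ranges of Elovl5 and Fads1 over the libraries overlapped, and so did those of Fads2 and Elovl1. Across the 8 libraries the log2 level of Fads3 (r = 0.963) and Scd2 (r = 0.941) followed Scd1 most closely, then Elovl6 (0.858), Fads1 (0.836), Scd3 (0.800), Fads2 (0.612), Scd4 (0.587), Elovl5 (0.293) and Elovl1 (0.231). These are Pearson correlations over 8 libraries that fall into 4 groups, so they mostly describe the differences between groups. Among 12093 genes averaging 50 or more, those most like Scd1 by this measure were Lctl (r = 0.996), Fhl1 (0.990), Ubr7 (0.989), Ncan (0.988) and Dmtn (0.986). Lctl was at 39 and 59 in WT mice on SD, 6 and 11 in KO mice on SD, 1114 and 986 in WT mice on HFD and 45 and 20 in KO mice on HFD.

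The steps around these enzymes were read from lists of the pathway, shown together in the plot of members and lists. Of 10 tested genes that supply acyl-CoA, 6 fell in KO mice on HFD and none rose. In this comparison 15.1% of all tested genes were lower and 17.1% higher, and the lists are short, so their counts are given as values only. Fasn, the fatty acid synthase, was at 135080 and 138092 in WT mice and at 20503 and 9040 in KO mice on HFD (log2 fold change -3.33 ± 0.31 SE, adjusted p = 7.6e-06, limma), and at 42835 and 44565 against 18280 and 27415 on SD. The others that fell were Acss2 (-2.66), Acaca (-1.91), Me1 (-1.90), Acly (-1.67) and Acsl4 (-0.75), which make acetyl-CoA, malonyl-CoA, NADPH and activated arachidonic acid. The call of Acsl4 was lost at the same total (-0.37, adjusted p = 0.082), with Scd1 left out of that total (-0.52, below the fold limit) and without the first WT library on HFD (adjusted p = 0.052). Of the 6 tested genes of the cytochrome b5 system, Cyb5b (-1.46), Cyb5a (-1.45) and Cyb5r3 (-0.99 in log2 fold change) fell and none rose.

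Of the 6 other genes of the elongation cycle, Hacd2 (-1.61) and Tecr (-1.33), the dehydratase and the final reductase, fell on HFD, and Hacd4 (0.87) rose. These counts stand beside 15.1% of all tested genes lower and 17.1% higher. The call of Hacd4 was lost without each of the 4 libraries on HFD in turn (adjusted p = 0.097 to 0.17), without a filter (0.067) and after quantile normalization (0.083). Hsd17b12, the ketoacyl reductase with the highest level of this list, was at 3169 and 3755 in WT mice and 4337 and 2514 in KO mice on HFD (-0.06, adjusted p = 0.85). On SD it was higher in KO mice, at 3214 and 3895 against 1717 and 1532 (2.18-fold, adjusted p = 0.010), a call that was lost without either WT library on SD or the second KO library on SD and without a filter on low values. Of the 7 other desaturase and elongase genes, 4 could be tested: Fads6 (2.94) and Degs2 (1.07) rose, Degs1 (-0.76), the ceramide desaturase, fell, and Elovl7 did not pass. The call of Degs2 was lost without each of the 4 libraries in turn (adjusted p = 0.099 to 0.15), without a filter (0.072) and after quantile normalization (0.11). The call of Degs1 was lost when libraries were scaled to the same total (-0.37, adjusted p = 0.087), and it fell below the fold limit with Scd1 left out of that total (-0.53) and after quantile normalization (-0.55). Elovl3, an elongase known from brown fat and skin, was listed at 0 in 5 libraries, at 2 in the second KO library on SD, and at 15 and 2 in KO mice on HFD.

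Among 6 genes that use acyl-CoA, Dgat2 (-2.56), Gpam (-1.30) and Agpat2 (-1.01), which build triglyceride, fell on HFD, and Soat1, which esterifies cholesterol, rose from 163 and 154 in WT mice to 2356 and 2254 in KO mice (3.85 ± 0.22 SE, adjusted p = 1.2e-07, limma). On SD Soat1 was higher too, at 2054 and 1277 against 250 and 281 (2.61, adjusted p = 1.7e-05). The call of Gpam was lost without the second KO library on HFD (-0.88, adjusted p = 0.057), and that of Agpat2 without this library (-0.56, adjusted p = 0.055), without either WT library on HFD (0.051 and 0.062) and after quantile normalization (-0.60, adjusted p = 0.066). Of 15 regulators 7 fell and 1 rose, where 15.1% of all tested genes were lower and 17.1% higher. Those that fell included Insig1 (-1.64), which retains the SREBP complex in the endoplasmic reticulum, Rxra (-1.62), Mlxipl (-1.50), which encodes ChREBP, Pparg (-1.29), Insig2 (-1.26) and Mlx (-0.94), and Nfya (1.22) rose. The call of Mlx was lost at the same total (-0.56, adjusted p = 0.098), without either WT library on HFD (0.061 and 0.091) and without the second KO library on HFD (0.096). Srebf1 was at 7186 and 7596 in WT mice and at 5297 and 2964 in KO mice on HFD (-0.90 ± 0.23 SE, adjusted p = 0.0096), and its call was lost in 3 of the 4 fits that left out a library, without the second KO library (-0.48, adjusted p = 0.080) or either WT library (0.058 and 0.083). It was also lost with the WT libraries on HFD as 1 sample (0.074), without a filter (0.052), at the same total (-0.51, adjusted p = 0.056) and after quantile normalization (0.075). With the WT libraries on HFD as 1 sample 10 of the 56 calls on HFD over all lists were lost: Srebf1, Mlx, Agpat2, Degs2, Hacd4, the adipocyte marker Pnpla2, and the markers Cd34, Pecam1, Vwf and Msln of other cells. On SD the called genes of the 6 pathway lists were Hsd17b12 and Soat1.

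**Figure D5:**
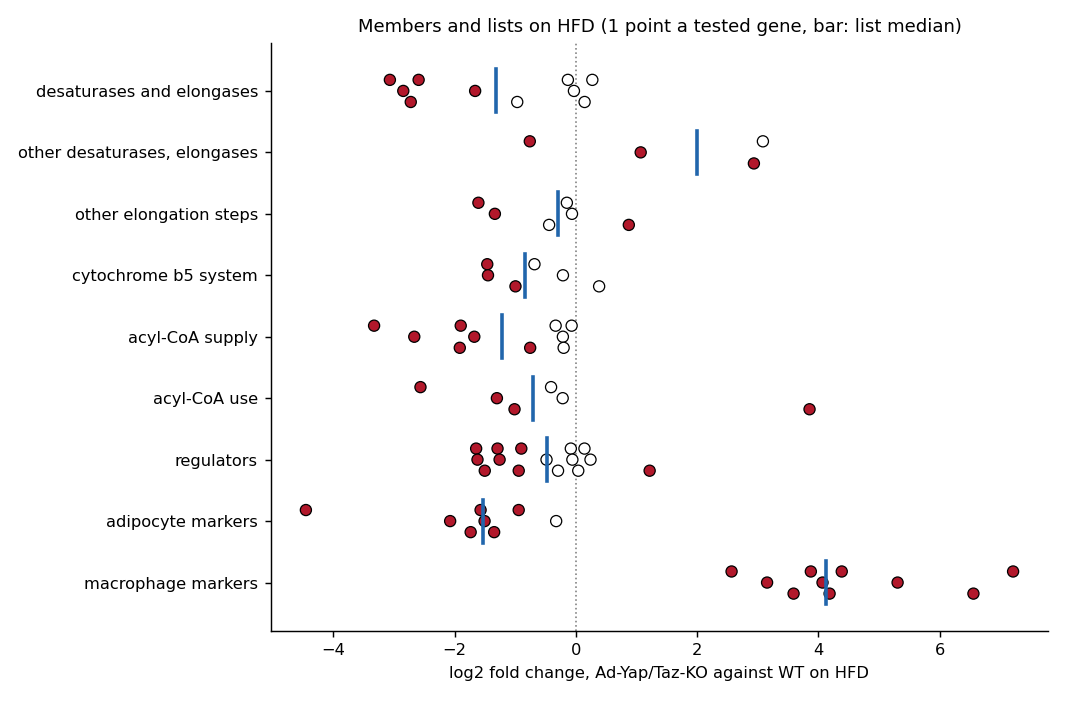
Log2 fold change of KO against WT mice on HFD for the 10 desaturases and elongases and for lists of related genes and cell type markers, with 1 point per tested gene, filled where it passed the test, and a vertical bar at the list's median. The medians are -1.31 for the desaturases and elongases, -1.21 for acyl-CoA supply, -1.54 for the adipocyte markers and 4.13 for the macrophage markers.

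Markers of cell types moved with these genes. Of 8 adipocyte markers, 7 were lower in KO mice on HFD, where 15.1% of all tested genes were lower. Fabp4 did not pass (-0.32, adjusted p = 0.41, limma). The call of Pnpla2 (-0.94) was lost after quantile normalization (-0.23, adjusted p = 0.53), at the same total (-0.56, adjusted p = 0.11), without a filter (0.096), in a fit of these 2 groups alone (0.053), without the second KO library on HFD (-0.48, adjusted p = 0.20) and without either WT library on HFD (0.12 and 0.11). Their summed level was 196881 to 203743 in WT mice on SD, 160535 to 231620 in KO mice on SD, 355835 to 363436 in WT mice on HFD and 90527 to 181773 in KO mice on HFD. The second KO library on HFD was the lowest in this sum. It had the lower Scd1, Scd2 and Fads3 of its group, and the higher Fads1 and Elovl6. All 10 macrophage markers were higher in KO mice on HFD, where 17.1% of all tested genes were higher. On SD 9 of 10 were higher, where 604 of 18800 tested genes were. The call of Cd14 on SD (1.28) was lost without a filter (adjusted p = 0.085, limma) and in a fit of the 2 groups on SD alone (0.057). Its difference was 1.08 without the second WT library on SD and 0.96 without the first KO library on SD. The summed levels of the 10 markers were 4784 to 4826, 16361 to 29108, 2190 to 2274 and 29634 to 31463 in the same order of groups. Lyz2 alone gave 10872 and 9376 of the last of these sums.

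Of 9 fibroblast markers, 7 were higher in KO mice on HFD (summed level 22712 to 23246 in WT and 71283 to 80284 in KO mice), where 17.1% of all tested genes were higher. Of 7 endothelial markers Pecam1 and Vwf were higher (21402 to 22190 against 25493 to 39536). The calls of Pecam1, Vwf and the fibroblast marker Cd34 were lost without a filter (adjusted p = 0.094, 0.065 and 0.090, limma). They were also lost without either WT library on HFD. Without the second KO library on HFD they were lost too, at 0.52, 0.75 and 0.48. Of 6 tested mesothelial markers Wt1 was higher and Msln was lower (175 to 211 against 323 to 708, summed over the list in WT and KO mice), a call of Msln that was lost without each library in turn, with either other pseudocount, without a filter and at the same total. Msln, Krt8, Krt18, Krt19 and Lrrn4 were each at 0 in at least 1 library. The part of these cell types in the changes of the 10 genes was not tested. Markers of the epididymis, of which 4 of 7 are in the table, summed to at most 48 in any library.

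The 10 genes were therefore also read against the adipocyte markers, with each library scaled to the geometric mean of these 8 genes, a choice made after seeing the data. Between KO and WT mice on HFD these 8 changed unequally, from -4.45 for Lep to -0.32 for Fabp4, with a median of -1.54. Lep was at 72885 and 73642 in WT and at 7257 and 1545 in KO mice on HFD, and its diet difference in WT mice was 2.36. The scale thus also carries changes of single markers, and a scale without Lep was not fitted. On this scale Scd1 (-1.10, adjusted p = 0.020, limma), Scd2 (-0.98, adjusted p = 0.031) and Elovl6 (-1.33, adjusted p = 0.022) were still lower in KO mice on HFD, where 0.596% of all tested genes were lower. Fads3 did not pass (-0.85, adjusted p = 0.062), and Fads1 stood at 0.08 (adjusted p = 0.87). Elovl1 (2.01), Elovl5 (1.71) and Fads2 (1.61) were called higher, as were 65.8% of all tested genes, whose median was 1.78. On SD no member passed. In WT mice, where 0.426% of all tested genes were higher, HFD raised Scd1 (1.62) and Scd2 (2.73), and in KO mice, where 0.936% were higher, it raised Scd1 (1.63) and Scd2 (2.06), and Scd3 was called too, from 0 and 3 normalized counts on SD. None of the 4 negative interactions passed on this scale, with 0.14 for Fads3, 0.20 for Fads1, -0.16 for Elovl6 and -0.67 for Scd2. That of Scd1 was 0.01, and Fads2 alone was called (2.20, adjusted p = 0.020), where 31.2% of all tested genes were called positive and the median was 1.68.

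RefSeq promoters of GRCm38.p6, 300 bases around each start of transcription, were found for 7 of the 10 genes: Scd3, Scd4, Fads2, Fads3, Elovl1, Elovl5 and Elovl6. The motifs of lipid regulators were searched on both strands, the NF-Y box CCAAT, the sterol response element TCACNCCAC and the E-box CACGTG, together with the motif GGAATG of TEAD factors, through which YAP and TAZ bind DNA. The promoters of Fads3 and Elovl6, which were lower in KO mice on either diet, are shown with that of Fads2, which was not called, and capitals mark the motifs found.
Fads3 (chr19:10041298-10041597, + strand): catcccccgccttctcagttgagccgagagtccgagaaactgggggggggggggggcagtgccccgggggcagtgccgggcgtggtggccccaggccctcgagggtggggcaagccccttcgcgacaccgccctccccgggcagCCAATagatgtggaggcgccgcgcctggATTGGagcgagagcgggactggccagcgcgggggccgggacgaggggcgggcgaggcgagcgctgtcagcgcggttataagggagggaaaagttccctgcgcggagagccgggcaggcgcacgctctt
Elovl6 (chr3:129532136-129532435, + strand): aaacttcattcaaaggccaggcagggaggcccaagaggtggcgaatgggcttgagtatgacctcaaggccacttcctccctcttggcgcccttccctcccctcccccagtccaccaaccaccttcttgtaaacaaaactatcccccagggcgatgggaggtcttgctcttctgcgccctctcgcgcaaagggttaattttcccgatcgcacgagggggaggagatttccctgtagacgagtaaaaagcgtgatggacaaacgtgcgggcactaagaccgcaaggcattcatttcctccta
Fads2 (chr19:10101454-10101753, - strand): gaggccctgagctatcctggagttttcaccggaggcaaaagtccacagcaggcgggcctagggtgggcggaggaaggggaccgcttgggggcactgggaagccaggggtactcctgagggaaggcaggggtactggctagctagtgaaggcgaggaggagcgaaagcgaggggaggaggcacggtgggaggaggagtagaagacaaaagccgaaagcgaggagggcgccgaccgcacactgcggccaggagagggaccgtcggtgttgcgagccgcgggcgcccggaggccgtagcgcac
Fads3 held the NF-Y box at 106 and at 78 bases before the start, and neither Elovl6 nor Fads2 held any of the 4 motifs in this window. Elovl5 held the NF-Y box at 71 and 17 bases and an E-box at 161 bases before the start, and Elovl1 the NF-Y box at 35 bases before the start of 1 of its 2 promoters. Scd3 and Scd4 held none. Of 32851 mouse promoters of this length, 37.4% held the NF-Y box, 14.7% the TEAD motif, 7.2% the E-box and 1.2% the sterol response element, so the matches in Fads3 and Elovl1 are common ones.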

How the data were processed

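RNA of isolated epididymal white adipocytes was measured in 8 libraries, which were assigned to 4 groups from the sample labels. The authors used Reaper for trimming, STAR 2.5.2b for alignment to GRCm38, featureCounts 1.5.1 for counting on exons and DESeq2 1.14.1 for testing. The deposited values are a score: each library's counts over its size factor, which the authors rounded to whole numbers, from which whole reads could not be recovered, so count models were not run. Whether the counting used the strand is not given in the sources used here. Genes with a mean of at least 5 were fitted with limma 3.58.1 (trend) in R 4.3.3 on log2(value + 1), with a mean for each of the 4 groups (degrees of freedom: 4 residual, 8.59 prior); fold changes are on this scale, which understates those of low genes. The study's limits, 0.05 for the adjusted p and 0.59 for the size of the log2 fold change, were used for calls. The fit was also run on simulated data, and the outcome is not given here. The value of 1 read, 0.795 to 1.135 between libraries, came from the spacing of low values. Intervals cover the spread between libraries, and a value at 0 allows up to 3 counts. Exon lengths, windows and coding alignments (Biopython 1.88) came from GENCODE transcripts of GRCm38. The replicate numbers did not pair the libraries. The named genes were, from each list, the gene with the highest mean and the called gene with the largest change on HFD, the targeted genes, known partners, and the 5 genes most like Scd1; the other called genes of the lists and the neighbours of the members were named after their values were seen. The members and lists were chosen with earlier results of these data known. Alternatives covered the pseudocount, the filter, the scaling, the samples fitted, the replicate block, the fold limit and leaving out each library.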

Additional observations from a re-analysis of the deposited data

Results flagged for a closer look

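The difference between genotypes differed between the diets for 4 of the 10 genes, by the test of the interaction in limma (KO against WT on HFD minus the same on SD). All 4 were negative, where 8.73% of all tested genes were called negative. The interaction was -2.30 for Scd2, -1.43 for Fads1, -1.49 for Fads3 and -1.78 for Elovl6 on the log2 scale, with adjusted p-values of 0.0094, 0.0033, 0.013 and 0.0070. In each of the 4 the genotypes lay further apart on HFD, where WT mice had their highest values. Fads1 kept its call with the WT libraries on HFD entered as 1 sample and without each library in turn, whereas the other 3 were not called without the first WT library on SD. No interaction of these 4 was called when libraries were scaled to the adipocyte markers. The markers of adipocytes themselves had negative interactions in 6 of 8 genes, where 8.73% of all tested genes were called negative. All 10 macrophage markers had positive ones, where 1633 of 18800 tested genes were called positive. With the WT libraries on HFD as 1 sample 0 of the 6 and 7 of the 10 were still called. Their part in the interactions of the desaturases and elongases was not tested.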

How the results depend on the processing

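The 5 calls on HFD between genotypes were made under each of the 12 other settings and without each library in turn, and on the scale of the adipocyte markers 6 genes were called, 3 lower and 3 higher, where 0.596% of all tested genes were lower and 65.8% higher. The replicate block called 5, 2, 5, 0 and 4 of the 10 genes in the 4 comparisons and the interaction, the same counts as without it. The numbers gave no pairing, with correlations of same-numbered libraries' deviations between -0.30 and 0.108, and only 2 libraries per group. On SD the 2 calls became 3 after quantile normalization, with Scd1 added, 1 without a filter on low values, 1 with the WT libraries on HFD as 1 sample and 0 on the scale of the adipocyte markers, and 0 to 2 when a library was left out. For diet in WT mice the 5 calls became 3 with the WT libraries on HFD as 1 sample and 2 on the marker scale, 6 with a pseudocount of 8 (Scd3 added), 4 at the same total, and 4 to 5 when a library was left out. For diet in KO mice the 0 calls became 1 after quantile normalization and 3 on the marker scale, and were 0 to 1 without a library. The 4 interactions became 2 without a filter, 1 with the WT libraries on HFD as 1 sample and 1 on the marker scale, and 1 to 5 without a library. Counting fewer samples leaves fewer degrees of freedom, and the cause of the other changes was not tested. As a share of protein-coding counts outside the mitochondrial genome, Scd1 took 3.47% in WT and 1.53% in KO mice on SD, 14.3% in WT mice on HFD, and 3.84% and 2.21% in the KO libraries on HFD.

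The following differences changed sign (log2), among them the called genotype difference of Fads1 on HFD and the called interactions of Fads1 and Fads3. With libraries scaled to the adipocyte markers, KO against WT on HFD was 0.71 for Scd3, 0.082 for Fads1, 1.61 for Fads2 and 1.71 for Elovl5. On that scale the diet difference in WT mice was -0.71 for Fads2, -0.27 for Elovl1 and -0.51 for Elovl5, and in KO mice 0.24 for Fads1 and 0.29 for Elovl6. The interaction was then 0.011 for Scd1, 0.20 for Fads1, 0.14 for Fads3, 1.59 for Elovl1 and 1.35 for Elovl5. Scaled to the same total, KO against WT on HFD was 0.25 for Fads2, 0.35 for Elovl5, 0.32 for Hsd17b12, 0.062 for Fabp4 and 0.044 for Ubr7; the diet difference in WT mice was -0.24 for Fads2 and -0.035 for Elovl5; and the interaction was 0.40 for Elovl1 and 0.15 for Elovl5. With Scd1 left out of that total the genotype difference on HFD was 0.10 for Fads2, 0.20 for Elovl5 and 0.17 for Hsd17b12, the diet difference in WT mice -0.090 for Fads2, and the interaction 0.27 for Elovl1 and 0.018 for Elovl5. After quantile normalization KO against WT on HFD was -0.56 for Scd4, 0.15 for Elovl5, 0.25 for Hsd17b12 and 0.38 for Fabp4, and the interaction of Scd4 was -0.40. Without each library in turn, KO against WT on SD ran from -0.97 to 0.13 for Scd2, and on HFD from -0.085 to 0.37 for Scd4, -0.31 to 0.045 for Fads2, -0.065 to 0.0025 for Elovl5, -0.46 to 0.33 for Hsd17b12, -0.73 to 0.081 for Fabp4 and -0.070 to 0.55 for Ptprb. The diet difference in KO mice ran from -0.32 to 0.52 for Fads3, and the interaction from -0.22 to 0.16 for Elovl1. Scd3 and Scd4 rest on 0 to 44 normalized counts per library, where 1 read was worth 0.795 to 1.135, so depth limits what their values can show.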

Other observations

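The genes that neighbour the desaturases and Elovl6 within 250 kb were read beside them, in the comparison on HFD where 15.1% of all tested genes were lower and 17.1% higher. With so few genes, these counts are given as values only. Around the 4 stearoyl-CoA desaturases 9 other genes could be tested, of which Erlin1 (log2 fold change -0.77) and Sec31b (-1.08) fell in KO mice on HFD and none rose. Wnt8b, which lies between Scd1 and Sec31b, was at 4 and 18 in WT and 5 and 6 in KO mice on SD, 71 and 67 in WT mice on HFD, and 23 and 11 in KO mice on HFD. Its highest libraries were those of WT mice on HFD, and those of WT mice on SD overlapped both KO groups. It was called higher on HFD in WT mice, and did not pass between genotypes on HFD (-2.04, adjusted p = 0.064, limma).

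Around the FADS cluster 9 other genes could be tested. Incenp (1.72), Best1 (1.58), Syt7 (1.42) and Rab3il1 (0.96) rose in KO mice on HFD, where Fads1 and Fads3 fell. Rab3il1, which lies next to Fads3 on the same strand, was at 236 and 326 in WT and 528 and 553 in KO mice on HFD. Dagla, which makes an endocannabinoid, fell (-1.15), with 348 and 365 in WT and 185 and 138 in KO mice on HFD. Around Elovl6, 6 other genes could be tested, of which the phospholipase gene Pla2g12a (-1.77) and Enpep (-1.30) fell and none rose. These genes were named after their values were seen.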
